A study of Drosophila melanogaster with 3 samples.

Results

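The 73 genes described here encode proteins of the mitochondrial ribosome of the fruit fly Drosophila melanogaster. They are the protein-coding genes whose symbol begins with mRpL or mRpS and a number, and they are 73 of the 13968 protein-coding genes on the main chromosomes. By symbol, 47 belong to the large subunit and 26 to the small subunit. A gene was counted as carrying a peak of Bab1 when the summit of a peak lay in its body or in the 1000 bp upstream of it.

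The mitochondrial ribosome translates the few messages of mitochondrial DNA, which code for core subunits of the respiratory chain and of ATP synthase. In animals its proteins are all encoded in the nucleus, made in the cytosol and imported. Its large subunit holds the peptidyl transferase centre and the exit tunnel, and its small subunit holds the decoding site. Bab1 (Bric-a-brac 1) is a nuclear transcription factor with a BTB domain, and Bab proteins are known to bind DNA rich in A and T.

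The data are ChIP-seq peak lists from whole adult females of unknown age, all of 1 transgenic line, bab1-RA (bab1-s)-GFP, in which Bab1 carries GFP at its C terminus. Chromatin was precipitated with an antibody against GFP in 3 biological replicates, which form the study's single group. Each replicate list and the pooled list hold 30000 peaks. A further list of 6896 peaks was thresholded by the irreproducible discovery rate (IDR), which rests on how alike peaks rank between replicates. These are the 6896 strongest peaks of the pooled list, so a single IDR peak need not rank alike in all 3 replicates. No list from flies without the fusion protein was analysed here, and each peak is an average over all tissues of the female. Peaks were ranked within a list by their signal value, the peak caller's measure of strength, with rank 1 the strongest. The 6896 strongest peaks of each replicate are called its top list. The rank of a gene in a list is that of its strongest summit there, which can be a different peak in each list. The lists give no read counts, so the depth of the libraries is unknown, and the labels do not say whether the replicates were separate cultures.

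Summits of the strongest peaks at these genes lay in sequence rich in A and T, and 8 summits outside annotated leader and trailer sequence are shown for that reason. Each is 61 bases of the Release 6 (dm6) genome from RefSeq, centred on the summit and read along the strand of the mitochondrial ribosomal gene, with runs of 8 or more A or T bases in capitals. The first 6 belong to peaks between rank 9 and rank 1225, lie between the start sites of a divergent gene pair and were picked as examples. They are mRpS10 (chr3R:15229510-15229570, plus strand), mRpS23 (chr2L:13835431-13835491, minus strand), mRpL24 (chr2L:4945460-4945520, minus strand), mRpL20 (chr3L:13018103-13018163, minus strand), mRpS2 (chr2L:4850561-4850621, minus strand), which holds no such run, and mRpL39 (chr3L:14999799-14999859, minus strand). A pair of weaker peaks, mRpL10 (chr2L:203700-203760, plus strand) and mRpL4 (chr2L:16329190-16329250, minus strand), has ranks 2005 and 5128 and also holds none. This pair is poor in A and T over the 61 bases, with 45.9% and 50.8%, but held 58.4% and 53.5% over 101 bp. Many other weaker peaks do hold such runs, as at mRpL44 with 86.9% at rank 5988. The sequences are therefore examples and show neither the full range nor a rule.
mRpS10: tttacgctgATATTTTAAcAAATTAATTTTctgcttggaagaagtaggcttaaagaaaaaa
mRpS23: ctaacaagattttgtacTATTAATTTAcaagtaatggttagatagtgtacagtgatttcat
mRpL24: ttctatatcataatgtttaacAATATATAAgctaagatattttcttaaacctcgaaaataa
mRpL20: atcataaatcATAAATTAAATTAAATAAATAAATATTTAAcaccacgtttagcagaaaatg
mRpS2: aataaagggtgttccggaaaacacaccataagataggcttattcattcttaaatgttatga
mRpL39: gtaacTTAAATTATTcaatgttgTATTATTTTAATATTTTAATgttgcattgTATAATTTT
mRpL10: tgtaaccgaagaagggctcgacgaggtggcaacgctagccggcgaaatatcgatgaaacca
mRpL4: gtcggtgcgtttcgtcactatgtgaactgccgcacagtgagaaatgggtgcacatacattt

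Start sites of these genes often held the palindrome CAGCTG, an E-box. It lay within 150 bp of the start in 42 of the 73 genes (57.5%), against 18.1% of all protein-coding genes. A set of 8 examples is shown to let the flanks be compared, each with 30 bases on the strand of the gene and the palindrome in capitals. They were picked so that 5 are followed by TT and 3 are not. The genes mRpS21 (chr3R:13381790-13381819, minus strand), mRpL32 (chr3R:31252844-31252873, plus strand), mRpL28 (chr2L:4973979-4974008, plus strand), mRpL19 (chr3R:8674105-8674134, plus strand) and mRpL13 (chr2L:18859193-18859222, minus strand) carry an IDR summit. The genes mRpL46 (chr3L:1777425-1777454, plus strand), mRpS34 (chr3L:16348064-16348093, plus strand) and mRpS35 (chr3L:2780875-2780904, plus strand) carry none.
mRpS21: agtgatattcatCAGCTGtttagcagtaca
mRpL32: atatcgatagcaCAGCTGtttcctcttgcg
mRpL28: ttcacatacgaaCAGCTGttttttccaaac
mRpL19: tatcggtgctgcCAGCTGattatagtgcgg
mRpL13: cacactgtctgcCAGCTGagaaattatttt
mRpL46: tgtgccgcaaatCAGCTGttccggctctgg
mRpS34: agccagccggcaCAGCTGttcgaccttccc
mRpS35: agtttctgtaaaCAGCTGattgcttgctat

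Bab1 peaks were present at most mitochondrial ribosomal protein genes. An IDR summit lay at 59 of the 73 genes, or 80.8% (exact 95% interval 69.9% to 89.1%, counting error only), where the share over all protein-coding genes was 44.2%. In the replicate top lists a summit lay at 55, 56 and 54 of the members (75.3% ± 1.37, SD, n = 3), against 42.8%, 43.3% and 42.1% of all protein-coding genes. All 3 replicates therefore put the members well above the genes as a whole, and the shares of the replicates lay within a few genes of each other. In the top lists of all 3 replicates at the same time there were 43 members (58.9%), against 33.8% of all genes. In the pooled list 72 members had a summit (98.6%), and 67.0% of all genes did. The genes are short, with a median length of 909 bp against 2164.5 bp over all protein-coding genes. Among the 4660 protein-coding genes of at most 1464 bp, the length that 90% of the members do not exceed, 26.7% carried an IDR summit.

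The frequent peaks were mostly of moderate strength. The median rank of the strongest peak was 3383 over the 59 members with an IDR summit (quartiles 1761.5 and 4722), against 2741 over all protein-coding genes with one. Over protein-coding genes of at most 1464 bp with an IDR summit it was 3041.5, closer to the members. Those with a protein-coding neighbour starting on the opposite strand within 1000 bp upstream had a median of 2721, against 3069 for such members. A few members stood far above the rest. The 100 strongest IDR peaks included the peaks of 5 members (6.85% of the 73, against 0.952% of all protein-coding genes). The 1000 strongest included those of 8 of 73 members, against 1224 of 13968 genes (8.76%), which is near the background over genes of all lengths. The ranks of the others spread over the list, with 23 members between ranks 1001 and 3448 and 28 between 3449 and 6896.

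**Figure D1:**
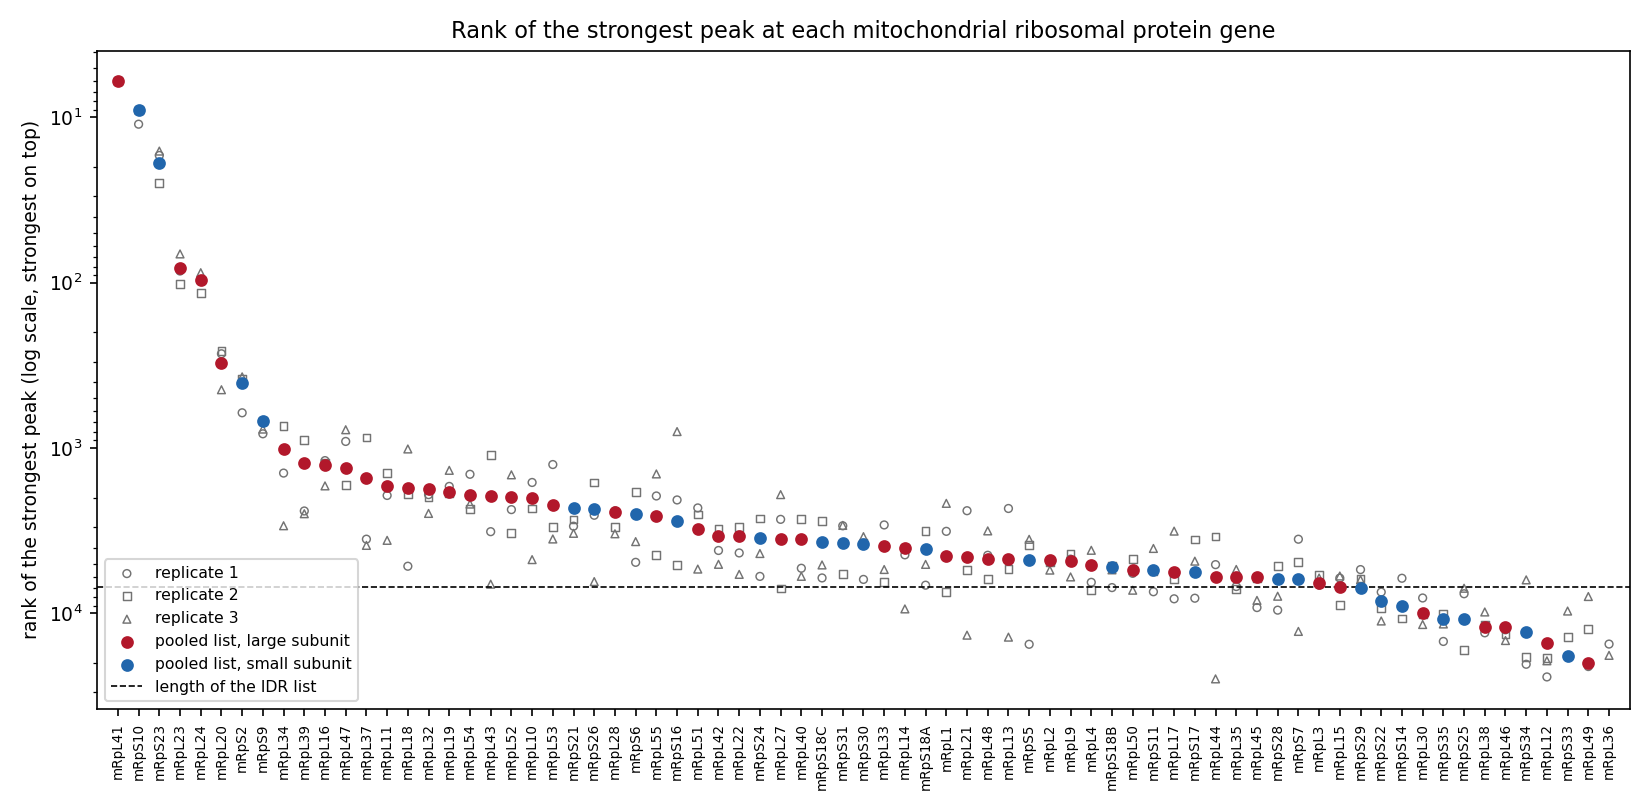
Rank of the strongest peak at each mitochondrial ribosomal protein gene, on a log scale with the strongest on top; filled points are the pooled list and open symbols are the 3 replicate lists, and the dashed line marks rank 6896, the length of the IDR list. The replicate symbols sit close to the filled points for the leading genes and spread more widely below rank 1000.

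In the large subunit 40 of 47 genes carried an IDR summit (85.1%, interval 71.7% to 93.8%), and 29 had a summit in all 3 top lists. The strongest of all members was mRpL41, which codes for a large subunit protein without a bacterial counterpart. Its IDR rank was 6, as was its rank in each of the 3 replicate lists, with signal values of 1750, 2430 and 1138 in replicates 1, 2 and 3. No replicate moved this peak, and the 3 summits lay within 8 bp.

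The genes mRpL23 and mRpL24, whose bacterial homologues lie at the exit of the peptide tunnel, were also among the 100 strongest. Another protein of the tunnel, mRpL22, had IDR rank 3397. The peak of mRpL23 had IDR rank 82 and ranks 85, 102 and 67 in replicates 1 to 3. The peak of mRpL24 had IDR rank 96, with 98, 115 and 87 in the replicates. mRpL23 stood ahead of mRpL24 in every list, by less than the spread of either gene over replicates.

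The next large subunit peak was at mRpL20, whose bacterial homologue is needed early in assembly of the subunit. Its IDR rank was 305, with 269, 260 and 444 in the replicates. Below it the replicates differed more. The peak of mRpL34, a small protein with a bacterial homologue, had IDR rank 1008 and replicate ranks of 1417, 739 and 2951. That of mRpL39, which has no bacterial counterpart, had IDR rank 1225 and replicate ranks of 2402, 897 and 2496. For both genes replicate 2 held the strongest rank and the replicates spanned more than the step between the genes.

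For mRpL16, whose bacterial homologue lies near the peptidyl transferase centre, the IDR rank was 1274 and the replicate ranks were 1191, 1235 and 1694. For mRpL47, the counterpart of bacterial L29 at the tunnel exit, it was 1328, with 912, 1680 and 775 in the replicates. For mRpL37, which has no bacterial counterpart, it was 1521, with 3557, 864 and 3878. At mRpL11, part of the stalk base where translation factors bind, the rank was 1692, with 1935, 1408 and 3616 in the replicates. At mRpL18, whose bacterial homologue binds 5S ribosomal RNA, it was 1752, with 5184, 1898 and 1013 in the replicates. These genes were in all 3 top lists, and their ranges over replicates overlapped.

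Among proteins whose bacterial homologues bind the ribosomal RNA of the large subunit the ranks varied widely. Beside the strong peaks of mRpL23, mRpL24 and mRpL20, the IDR ranks were 4738 at mRpL2, 5128 at mRpL4 and 6510 at mRpL3, the weakest among the 59. The gene mRpL3 nevertheless had a summit in every top list, with ranks 6742, 5867 and 6110. The summit of its IDR peak itself lay in a top list peak of 2 replicates. Of the stalk proteins, mRpL10 had an IDR peak of rank 2005 (1615, 2318 and 4729 in the replicates), and mRpL12 had none.

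In the small subunit 19 of 26 genes carried an IDR summit (73.1%, interval 52.2% to 88.4%), and 14 had a summit in all 3 top lists. The intervals of the subunits overlap, and the replicates put the large subunit at 39, 36 and 35 of 47 genes and the small subunit at 16, 20 and 19 of 26. The mean shares over replicates were 78.0% ± 4.43 for the large and 70.5% ± 8.01 for the small subunit (SD, n = 3). In replicate 2 the small subunit had the slightly higher share, so no stable difference between the subunits was seen. The median IDR rank was 2817.5 for the large and 3707 for the small subunit.

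The small subunit peaks were led by mRpS10 and mRpS23. The peak of mRpS10, whose bacterial homologue sits in the head of the subunit, had IDR rank 9 and replicate ranks of 11, 9 and 9, with signal values of 1414, 2095 and 987. The peak of mRpS23, a protein without a bacterial counterpart, had IDR rank 19 and replicate ranks of 17, 25 and 16. The replicate ranks of this pair did not overlap, nor did they overlap those of mRpL41.

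Below these came mRpS2 with IDR rank 402 and ranks 612, 380 and 371 in the replicates. The peak counted for mRpS9 had rank 690, with 820, 687 and 768 in the replicates. It lay 7013 bp inside mRpS9, which at 13391 bp is the longest member, and only 168 bp from the start of wtrw, which codes for a TRP ion channel. The stronger of the 2 IDR summits in mRpS9 is therefore far from the start of the gene that it was counted for. The other small subunit genes with an IDR peak had ranks from 2300 at mRpS21 to 6235 at mRpS7.

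**Figure D2:**
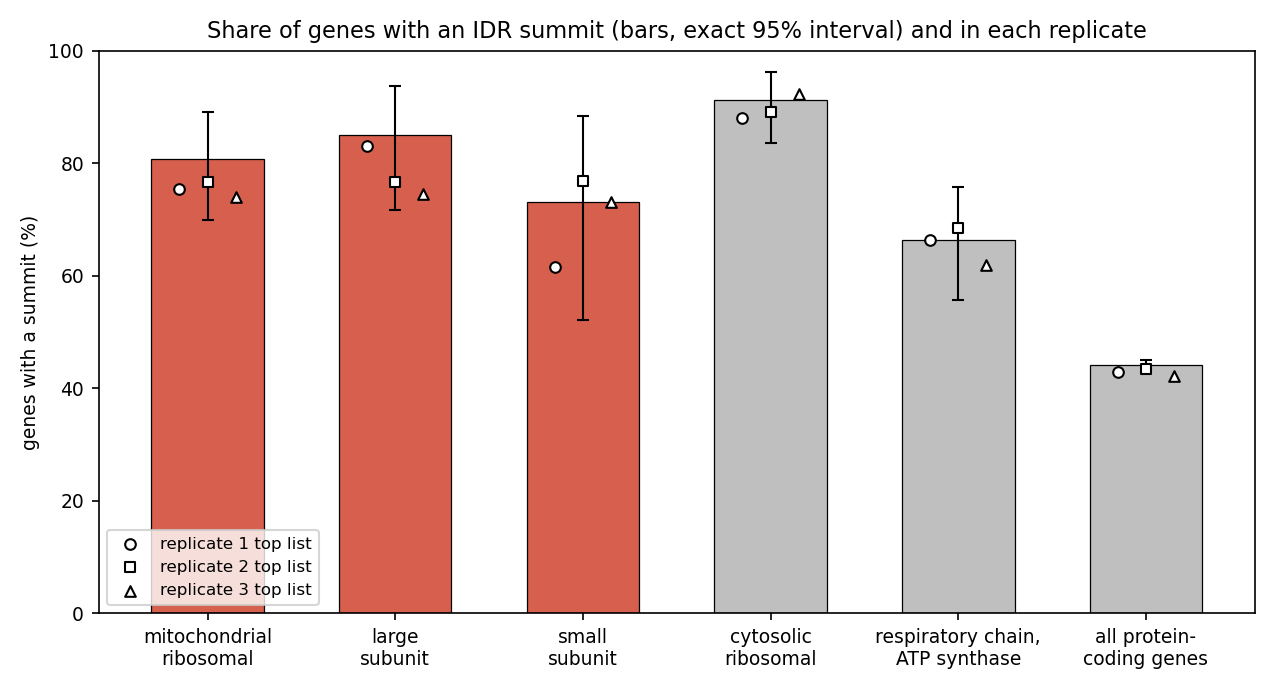
Share of genes with an IDR summit (bars, with exact 95% intervals) and with a summit in each replicate top list (open symbols) for all mitochondrial ribosomal genes, their large and small subunit, and the cytosolic ribosomal, respiratory chain and all protein-coding genes. The mitochondrial ribosomal bar stands at 80.8%, below the cytosolic ribosomal genes at 91.3% and above all protein-coding genes at 44.2%.

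No IDR summit was counted at 14 members, 7 of each subunit. Most were not bare of signal, since 13 of them had a summit in the pooled list. The pooled ranks of mRpL15 and mRpS29 were 6909 and 7067, just past the last IDR rank of 6896. mRpS29, the homologue of the human GTP-binding protein DAP3, had ranks 5433, 6142 and 6257 in the replicates and so was in all 3 top lists without an IDR peak. Its pooled summit lay at -589 bp from its start (negative is upstream) and 48 bp from the start of rad50, which codes for a DNA repair protein. mRpL15 was in the top lists of replicates 1 and 3 with ranks 6116 and 5942, and had rank 8910 in replicate 2. mRpS14 was in the top list of replicate 1 alone (rank 6129) and mRpS34 in that of replicate 3 alone (rank 6270).

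The other 10 members without an IDR summit were in no top list. Their pooled ranks were 8402 at mRpS22, 9891 at mRpL30, 10832 at mRpS35, 10865 at mRpS25, 12085 at mRpL38 and 12135 at mRpL46. They were 15154 at mRpL12, 18209 at mRpS33 and 19819 at mRpL49. mRpL12 codes for the stalk protein that contacts translation factors, and ranked 24223, 18555 and 19350 in the replicates. mRpL36 had no summit in the pooled list or in replicate 2, and had ranks 15325 and 17940 in replicates 1 and 3. mRpS33 had no summit in replicate 1. Whether these last peaks stand above the noise of the lists is not known, since each list was filled to 30000 peaks.

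Ranks were shared between replicates across the whole family. Spearman's rho over the members with a summit in both lists was 0.765 between replicates 1 and 2 (n = 71), 0.701 between 1 and 3 (n = 72) and 0.659 between 2 and 3 (n = 72). These are descriptions across genes, which are not independent, and all lists share the fly line, the antibody and the build. Over the 59 members with an IDR summit the median rank was 2969, 3012 and 3616 in replicates 1 to 3, a mean of 3199 ± 362 (SD, n = 3). Of these members 42 were in all 3 top lists, 15 were in 2 and 2 were in 1. The 2 were mRpL45 and mRpS28, both found in the top list of replicate 2. The widest range of ranks among the 59 was at mRpL44, with ranks 5071 and 3428 in replicates 1 and 2 and 24887 in replicate 3. The nearest replicate 3 summit lay 348 bp from the IDR summit of mRpL44, so that rank may belong to a different peak.

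Position was repeated less closely than presence. The 3 replicate summits nearest to the IDR summit lay within 5 to 582 bp of each other (median 76 bp), within 20 bp at 7 members, within 50 bp at 20 and within 100 bp at 44. The 5 strongest members kept within 8 to 21 bp. The widest spread was at mRpL13, an IDR rank of 4716. The 65 different IDR peaks at members included 39 whose summit lay in a top list peak of all 3 replicates.

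The peaks lay mostly at promoters, and 32 of the 59 strongest IDR summits lay between or at the starts of paired genes. Among the members, 58 of 73 (79.5%) had a protein-coding neighbour on the opposite strand whose start lay 0 to 1000 bp upstream, here called a divergent partner, against 36.2% of all protein-coding genes. The distance between the starts was 20 to 793 bp (median 283 bp). An IDR summit was counted at 50 of the 58 members with a partner (86.2%) and at 9 of the 15 without one (60.0%). Over all protein-coding genes the shares were 70.8% with a partner and 29.2% without. Among genes of at most 1464 bp that also have a partner, 45 of 52 members (86.5%) and 55.7% of the 1480 protein-coding genes had an IDR summit.

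Of the 59 strongest IDR summits 46 lay upstream of the member's own start (78.0%, against 69.9% over all protein-coding genes with a peak) and 13 at it or downstream. The upstream share was 79.7% over protein-coding genes of at most 1464 bp and 78.3% over those with a divergent partner, so the members did not stand apart. Their median position was -95 bp from the start (quartiles -162.5 and -42 bp, negative upstream). Within 250 bp of the start were 50 summits, against 4402 of 6177 over all protein-coding genes with a peak and 997 of 1244 over those of at most 1464 bp. The median distance without regard to direction was 118 bp, close to the 120 bp over all protein-coding genes with a peak. With a partner, 32 of 50 summits lay between or at both starts.

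The start nearest to the summit was often not the member's. It belonged to the member in 32 cases and to another gene alone in 27, in 26 of them to the divergent partner. The member's own start was thus nearest in 54.2% of the strongest peaks, against 66.7% over all protein-coding genes and 89.3% over cytosolic ribosomal protein genes. Among genes with a divergent partner the share was 48.0% for members and 50.8% for all protein-coding genes. At lengths of at most 1464 bp and with a partner it was 51.1% and 44.6%, so a low share was not particular to the family. For 5 of the 15 strongest members the own start was nearest or tied: mRpL41, mRpS10, mRpL23, mRpL34 and mRpL16. If a peak counts only for the gene whose start is nearest, 35 of 73 members (47.9%) carry an IDR summit, against 33.6% of all genes.

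The partners whose start was nearer have varied roles. The peak of rank 19 lay 103 bp from the start of CenG1A, a regulator of small GTPases, and at -389 bp from that of mRpS23. The peak counted for mRpL24 lay 89 bp from betaggt-I, a subunit of a protein prenyltransferase. The peak counted for mRpL20 lay 133 bp from Icmt, which methylates prenylated proteins. For mRpS2 the nearest start was that of Mon1, a factor of endosome maturation, at 50 bp.

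Some neighbours code for mitochondrial proteins, and how many of all partners do was not counted. The summit counted for mRpL55 lay 21 bp from the start of ATPsynD, a subunit of ATP synthase, and at -74 bp from its own. The summit counted for mRpL11 lay 97 bp from HtrA2, a mitochondrial protease. That of mRpL18 lay 115 bp from Taz, the tafazzin of cardiolipin remodelling. That of mRpL35 lay 153 bp from Mitofilin, an organiser of the cristae, and at -606 bp from its own start.

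Other neighbours nearest to a summit were Prosbeta2 of the proteasome for mRpL39, FoxK for mRpL2, the chromatin factor rept for mRpL21, the pseudouridine synthase Nop60B for mRpS17, Uba4 for mRpL51, cg for mRpS16 and norpA, the phospholipase C of vision, for mRpL33. For mRpL28 the start of the divergent partner was nearest, at 2 bp, and for mRpS30 that of Paf-AHalpha, at 9 bp. CG8176 and Kdm3 shared the nearest start for mRpL47. Genes with only a CG number were nearest for mRpL54, mRpL43, mRpL52, mRpS26, mRpL27, mRpS18C and mRpS18A.

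**Figure D3:**
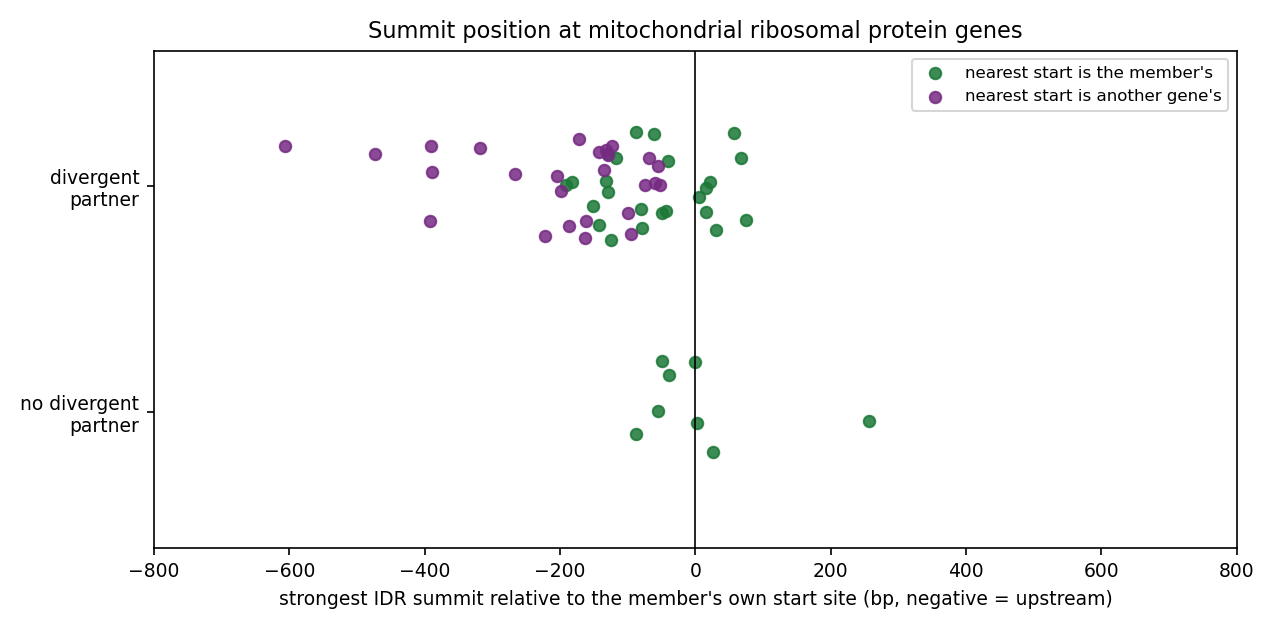
Position of the strongest IDR summit relative to the start site of each mitochondrial ribosomal gene (bp, negative is upstream), in rows with and without a divergent partner and coloured by whose start is nearest. Points are spread vertically at random to be visible, 58 of the 59 are shown, and the summit 7013 bp inside mRpS9 is off the axis; of the 13 summits at or downstream of the start, all except that of mRpS9 are nearest to the member's own start.

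Strong summits at the members were rich in A and T. In the 101 bp around the summit the 8 members of rank 1 to 1000 held 67.3% to 83.2% A+T (median 77.2%). The 23 members of rank 1001 to 3448 had a median of 61.4% (41.6% to 85.1%) and the 28 of rank 3449 to 6896 a median of 60.4% (46.5% to 84.2%). The lowest of the 8 strongest lay above the medians of both weaker classes, but weaker peaks reached the same high values. The values were 76.2% at mRpL41, 78.2% at mRpS10, 71.3% at mRpS23, 79.2% at mRpL23, 83.2% at mRpL24 and mRpL20, 67.3% at mRpS2 and 72.3% at mRpS9.

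The same order was seen at promoters in general. Over the 4550 IDR peaks within 250 bp of any start site the medians of the same rank classes were 69.3%, 59.4% and 57.4%. Spearman's rho of A+T with rank was -0.383 over the 59 member peaks and -0.226 over those 4550 peaks, so A+T fell toward the weaker ranks in both. These correlations are descriptions over peaks of the same lists, and ranks within the 8 strongest members held almost none of it (rho -0.108).

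**Figure D4:**
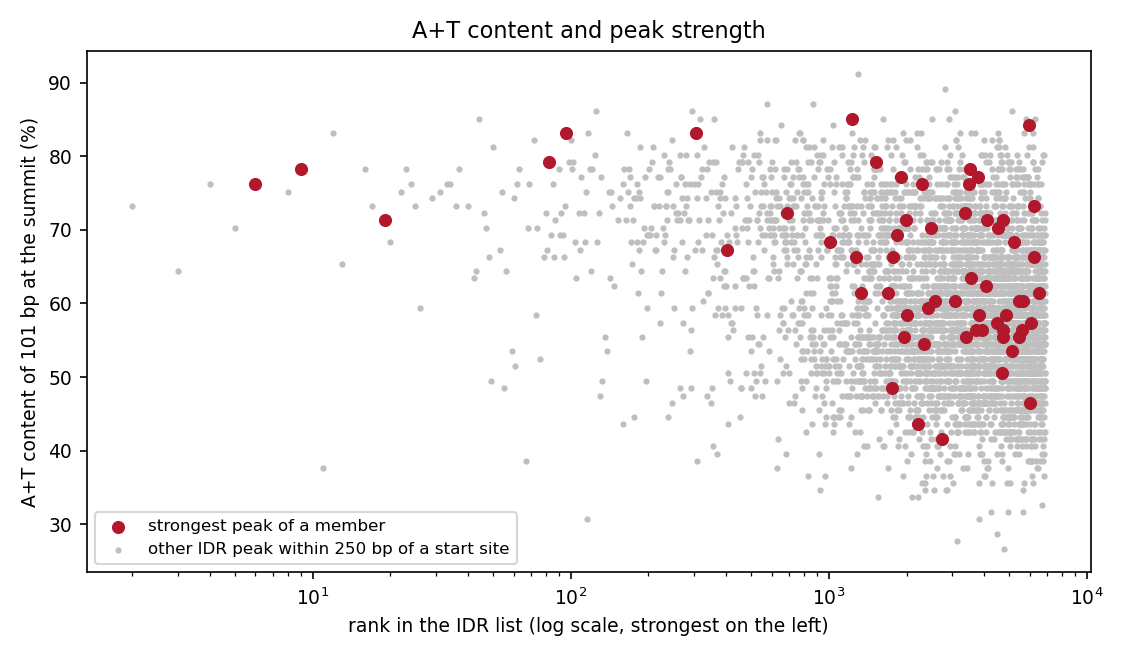
A+T content of the 101 bp at the summit against rank in the IDR list (log scale, strongest on the left), with the 59 member peaks in red over the other IDR peaks within 250 bp of a start site in grey. The 8 member peaks to the left of rank 1000 all lie at 67.3% or more, and the others spread from 41.6% to 85.1%.

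The A+T rise was centred near the summit and fell off on both sides. In bins of 50 bp the mean over the 59 member peaks was 65.6% ± 11.8 (SD over peaks) just past the summit, 52.1% ± 10.2 at its far left edge of 500 bp and 49.0% ± 11.9 at the far right edge. Over the 4550 promoter peaks the means of the same bins were 60.0%, 55.2% and 55.2%. The member profile was thus higher at the centre and lower at the edges than that of promoter peaks in general. Peaks of other short genes or of genes with a divergent partner were not profiled apart. Whether the shape is particular to the family was therefore not tested. The sequences printed for mRpL20 and mRpL39 are extreme cases, at 82.0% and 85.2% A+T over 61 bases. At mRpL10 it was 45.9% over 61 bases but 58.4% over 101 bp. Weak peaks could be as A+T-rich, since mRpL44 held 84.2% over 101 bp at rank 5988.

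**Figure D5:**
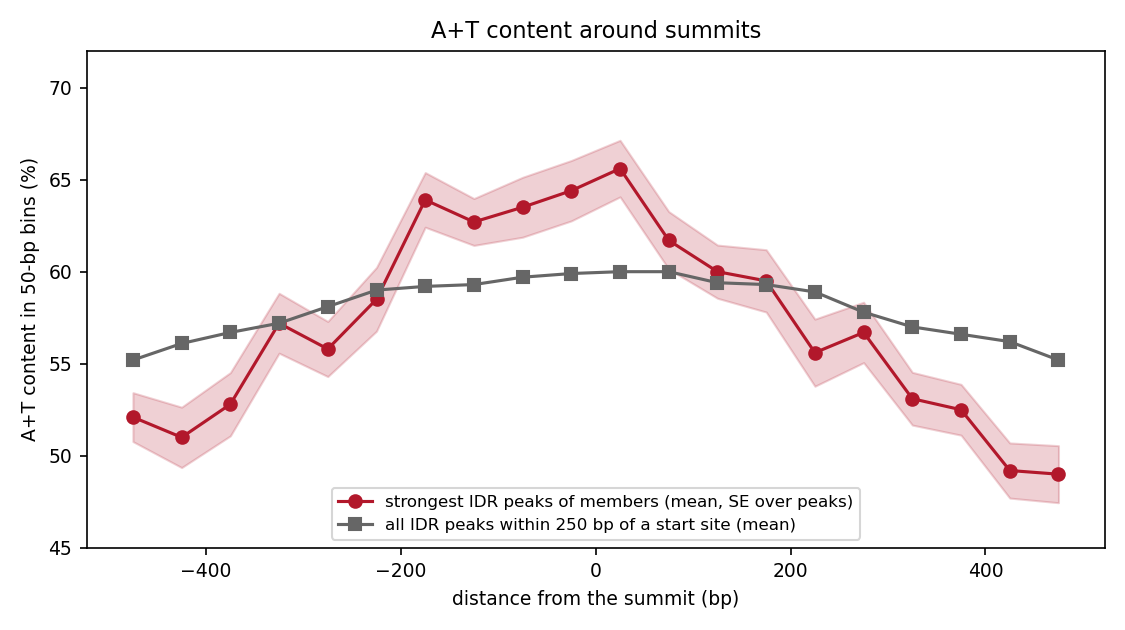
Mean A+T content in 50-bp bins against distance from the summit, for the 59 strongest member peaks (red, band is the SE over peaks) and for the 4550 IDR peaks within 250 bp of a start site (grey). The red line peaks at 65.6% beside the summit, above the grey line, and drops to 49.0% at the right edge, below it.

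Known core promoter elements were not frequent at the summits. Of 10 patterns searched on both strands within 50 bp of the 59 summits, TATCGATA, the DREF element, was found at 5 members (8.47%, against 6.42% of the 4550 promoter peaks). Its core ATCGAT, which every TATCGATA contains, was found at 9 of 59 summits (635 of the 4550 promoter peaks). GGTCACAC, a core promoter element of housekeeping genes, was found at 2 (3.39% against 4.53%). TATAAA was found at 6 (10.2% against 15.1%), and GAGAGAG, the GAGA factor element, at 1 (1.69% against 1.85%). The A+T-rich TAATAATAA was found at 3 (5.08% against 1.03%) and the E-box CACGTG at 3 (5.08% against 1.36%). GCGCATGC and CCGGAAGT were at none of the 59 summits and at 0.22% of the promoter peaks each. Most of these counts are too small to be set apart from the share at promoter peaks.

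At the start sites of the family CAGCTG was the most frequent of the 10 patterns. Within 150 bp of the start it was found in 42 of 73 members (57.5%), against 18.1% of all protein-coding genes. It was found in 26 of 47 large subunit genes and in 16 of 26 small subunit genes. Among genes with a divergent partner 21.5% held it, and among those that are also at most 1464 bp long 22.4% did. By comparison 8.7% of cytosolic ribosomal protein genes held it, with 28.3% of the nuclear genes of the respiratory chain and ATP synthase, 8 of 15 mitochondrial aminoacyl-tRNA synthetase genes and 5 of 12 genes of mitochondrial translation factors.

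The palindrome sat close to the start. Its median position was 10 bp downstream of the start (quartiles -9.25 and 22 bp, negative upstream), with 16 upstream and 26 downstream. It was found in 35 of 59 members with an IDR summit (59.3%) and in 7 of 14 without one, a difference of few genes. Over all protein-coding genes the shares were 23.4% with an IDR summit and 13.8% without. In the 35 members with both, the summit and the palindrome were 0.5 to 7070.5 bp apart (median 107.5 bp) and within 50 bp in 5. Within 50 bp of the summit CAGCTG was found at 7 of 59 members (11.9%, against 9.74% of promoter peaks), and within 100 bp at 21 (35.6%, against 17.7%).

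The letters after the palindrome were shared in part. The extended form CAGCTGTT, read along the gene, was found within 150 bp of the start in 24 of 73 members (32.9%), against 4.2% of all protein-coding genes. Its reverse complement AACAGCTG was found in 10 (13.7%), against 4.15%. A sequence with AACAGCTGTT counts for both. This extension was chosen after the sequences had been seen. TATCGATA was within 150 bp of the start in 15 members (20.5%), against 8.53% of all genes and 29.3% of cytosolic ribosomal protein genes.

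Among genes of the same pathway, the family was neither the highest nor the lowest. Both mitoribosomal genes that go by other symbols carried an IDR summit: tko, which codes for the homologue of bacterial S12, at rank 1109 and in all 3 top lists, and bonsai, for that of S15, at rank 2578 and in 2 top lists. Genes for proteins of the cytosolic ribosome carried one in 84 of 92 cases (91.3%, interval 83.6% to 96.2%), with a median rank of 1068.5. The strongest of them were RpL24 at rank 76 and RpL32 at rank 188. The share of the mitochondrial genes was lower, and their median rank of 3383 was weaker. The intervals of the IDR shares overlap. The replicate top lists held 75.3% ± 1.37 of the mitochondrial and 89.9% ± 2.26 of the cytosolic genes (SD, n = 3). In all 3 top lists were 58.9% and 85.9%. The difference was not tested.

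The nuclear genes of the respiratory chain and ATP synthase, which assemble with the products of the mitochondrial ribosome, carried an IDR summit in 61 of 92 cases (66.3%, interval 55.7% to 75.8%). Their strongest peaks were at Cyt-c-p (rank 148), which codes for cytochrome c, and at ND-39 (rank 350), a complex I subunit, where the start of the zinc transporter gene ZnT77C was nearer. Mitochondrial aminoacyl-tRNA synthetase genes carried one in 11 of 15 cases, led by LeuRS-m (rank 445, nearer to Dhc64C) and CysRS-m (rank 1282, nearer to O-fut1). MetRS-m, IleRS-m, GluRS-m and ValRS-m had none.

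Genes of mitochondrial translation factors carried one in 10 of 12 cases. The strongest was counted at waw, a mitochondrial elongation factor 4 homologue, at rank 54, but lay 4811 bp from its start and nearest to that of bbx. mTerf5 followed at rank 1195, and mRRF2 and mEFTu1 had none. Genes of mitochondrial DNA maintenance and transcription carried one in 6 of 10 cases, led by Lon (rank 115, nearer to PIG-F) and mtSSB (rank 1260). TFAM, PolG1, PolG2 and bsf had none. These lists are short, and their intervals overlap that of the mitochondrial ribosomal genes.

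The peaks were spread over all large chromosome arms that hold members. An IDR summit was counted at 12 of 12 members on 2L, 11 of 12 on 2R, 11 of 17 on 3L, 19 of 21 on 3R and 6 of 11 on X. The shares of all protein-coding genes on these arms were 39.5%, 45.1%, 43.9%, 44.3% and 49.2%. On X the members' share was 54.5% (interval 23.4% to 83.3%) and on 3L it was 64.7% (38.3% to 85.8%). On both of these arms the interval includes the share of all genes.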

How the data were processed

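Peak lists of 3 biological replicates, a pooled list and an IDR list, all on dm6 per the labels, were used as deposited. The authors' peak caller made the signal values and the −log10 q values. The deposited positions and summit offsets are coordinates in bp. Per the deposited file listings a control library entered the calls, which was not analysed here. Aligner, peak caller and threshold of the IDR list were not given in the sources used here, and the −log10 q values were not used for ranking. Signal values are comparable only within a list, so strength was compared by rank. The 6896 IDR peaks are the strongest of the pooled list. In 1 to 6 peaks of each list the summit lies past the peak end, and these were kept.

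Genes came from Ensembl release 115 (BDGP6.54) and sequence from RefSeq's Release 6, with 1-based coordinates. Python 3.11.15 and pandas 2.3.3 were used, intervals are exact Clopper-Pearson (scipy 1.17.1), and the assignment of summits to genes was tested on simulated data. With a single group no test was made and no p-value is given. The nearest start was sought among 18277 genes. Windows at start sites are centred on the most upstream start of a gene. Members, gene lists and patterns were chosen with earlier results of these data known. Named are the 15 members with the strongest IDR peak, every member without one or nearest to another gene's start, and the 2 strongest genes of each other list, with those lacking a peak where these were 5 or fewer. The 7 listed symbols Crif, sop, mEFG2, mtRF1, Guf1, tam and Twinkle matched no gene. Alternatives were other assignment rules, list lengths, overlaps and windows, and each replicate left out. The neighbour nearest to 1 member's summit is not reported here.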

Additional observations from a re-analysis of the deposited data

How the results depend on the processing

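The count of 59 members with an IDR summit was 52 within 250 bp of the own start, 72 in the pooled list and 41 to 46 with each replicate left out. It was 35 when the own start had to be nearest and 31 in the strongest 3448 IDR peaks. Under the same rules in the same order the share of all protein-coding genes, 44.2%, was 35.9%, 67.0%, 32.6% to 35.0%, 33.6% and 26.7%. The 43 members in all 3 top lists became 71 with whole lists, 18 with the strongest 3448 peaks and 48 to 49 with a replicate left out. The 39 IDR peaks in all 3 became 25 with a reciprocal overlap of at least 50% and 59 with whole lists. The median rank of 3383 became 2918 in replicate 1 and 2991 in replicate 2, where members outside the top list drop out. It became 2219 to 2459.5 with each replicate left out, where peaks outside either other top list drop out. The median distance of 118 bp became 95 bp with the summit nearest to the start, and the 5 summits with TATCGATA became 9 with ATCGAT. The following alternatives were chosen after seeing the data. The median A+T of 63.4% was 63.2% over 201 bp and 66.3% with any replicate left out, and CAGCTG was found in 38 members within 100 bp of the start (13.8% of all genes) and at 21 of the 59 summits within 100 bp, against 7 within 50 bp. Depth is unknown, and the small number of genes limits each share to the interval given.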
